A study of Mus musculus with 21 samples.

Results

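Nascent RNA made 4 h into bicuculline was compared with that made 1 h into bicuculline in mouse cortical cultures pretreated with MM401, and the genes that rose late or were shut off between those times are described. The libraries were chosen by their labels alone, as the MM401 libraries with bicuculline at 4 h (3) and at 1 h (3), which are 6 of the 21 libraries of the series. Primary cultures from the cortex of CD1 mice were used at day 17 in vitro. All 6 cultures were preincubated for 30 min with 25 µM MM401 and then received 40 µM bicuculline methiodide, for 1 h in one group and 4 h in the other. Bromouridine at 2 mM was present for the last 30 min, so each library samples RNA labelled in that window (BrU-seq, bromouridine sequencing). Used for comparison were MM401 cultures that received water in place of bicuculline for 1 h (3 libraries) or 4 h (3 libraries, of which 2 entered the fits), and cultures given the solvent DMSO in place of MM401 with bicuculline for 1 h or 4 h (3 libraries each). The labels name no genetic change in any group. The labels describe 3 biological replicates of mixed sex, and nothing in them says which libraries came from one preparation of cells.

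Bicuculline blocks GABA-A receptors, the main inhibitory receptors of cortex, and so raises firing across a cultured network. Firing opens a transcriptional programme in which genes for transcription factors are induced within minutes without new protein, and genes for effectors, secreted signals and channels follow over hours, partly under those factors. MLL1, the product of Kmt2a, methylates lysine 4 of histone H3 together with its partner WDR5, and MM401 is a peptidomimetic that blocks the contact of the pair. The question that the comparison addresses is how the response runs on from its early to its later phase while that binding is blocked.

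The 6 libraries held 49886348 to 67347805 counts in genes and detected 18864 to 19141 genes, and the 20 libraries of the fits held up to 87939384. The third MM401 library in water at 4 h held 316741 counts, 0.503% of the median of the others, and was left out of the fits. Levels are given as CPM, counts per 1000000 of the TMM-scaled library total, and changes as log2 fold changes of 4 h over 1 h with their standard error (SE). A gene was called when its adjusted p (edgeR's quasi-likelihood test, Benjamini-Hochberg over 16959 genes) was under 0.05. Of the labelled tissue's cell types, markers of all neurons summed in the 6 libraries to 5350.1 to 6616 CPM, and astrocyte markers 1345 to 1681 CPM. Endothelial markers summed to 1.78 to 3.01 CPM and fibroblast markers to 2.14 to 4.13 CPM, and Dlx1, a marker of GABAergic neurons, was listed at 0 in all 6.

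Between 1 h and 4 h of bicuculline under MM401, 5691 genes (33.6%) were called, of which 2974 (17.5%) were higher at 4 h and 2717 (16.0%) lower. Changes of at least 2-fold were fewer and mostly downward, with 197 genes higher (1.16%) and 381 lower (2.25%). Among genes with at least 2 CPM at one of the times and no overlap between libraries, the 5 largest rises were those of Fgf10, Inhba, Stc2, Dennd2c and Mctp2, from 2.22 to 1.95. The first 3 of these encode secreted proteins. The largest falls included those of Egr4, C8b, Homer1, Fosb and Egr3, of which Egr4, Fosb and Egr3 are transcription factors of the first wave. The median change over all genes was 0.02. With the shallow library in the fit 3646 genes were called, 1654 higher and 1992 lower. With plain library sizes in place of TMM the calls were 3603 higher and 1943 lower, so that 65.0% of calls were higher against 52.3% in the TMM fit.

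**Figure D1:**
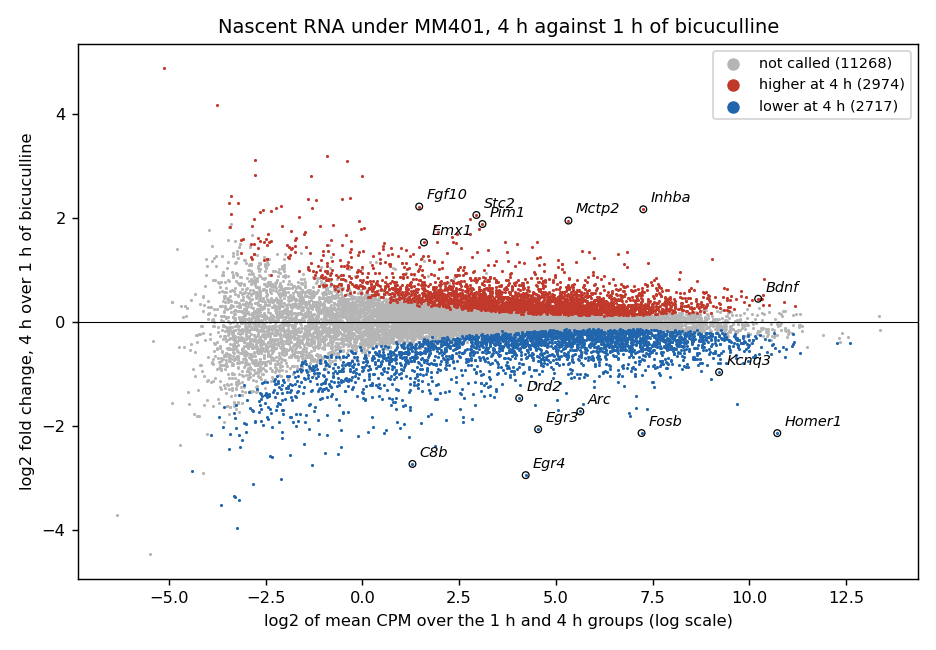
Each point is 1 of the 16959 genes tested, with the log2 of its mean CPM over the 6 MM401 bicuculline libraries on the x axis and its log2 fold change of 4 h over 1 h on the y axis. Red points (2974) are called higher, blue points (2717) lower and grey points were not called. Circled genes are named in the text, from Fgf10 at 2.22 to Egr4 at -2.94.

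Set beside the MM401 libraries in water, called water from here on, the named genes that rose late had 3 shapes, which were described after their values were seen. In the first, the gene was close to its water level at 1 h and well above it at 4 h. Fgf10, a secreted fibroblast growth factor (chr13:118714698-118792573, plus strand), stood at 1.18, 0.967 and 0.808 CPM in the 3 libraries at 1 h and at 4.58, 4.86 and 4.21 CPM at 4 h, against 0.744 ± 0.154 CPM (SD, n = 3) in water at 1 h. The log2 fold change was 2.22 (SE 0.16, edgeR adjusted p = 8.3e-10). Stc2, which encodes the secreted glycoprotein stanniocalcin 2 (chr11:31359440-31370061, minus strand), was slightly below the water level at 1 h, at 2.71, 3.05 and 3.16 CPM against 3.73 ± 0.247 CPM (SD, n = 3). It stood at 12.2, 12.3 and 12.9 CPM at 4 h, a log2 fold change of 2.06 (SE 0.11, edgeR adjusted p = 1.21e-11).

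Dennd2c, whose DENN domain marks activators of Rab GTPases, went from 2.77 ± 0.255 to 10.9 ± 0.932 CPM (SD, n = 3 each). Mctp2, a membrane protein with calcium-binding C2 domains, went from 16.5 ± 2.69 to 63.6 ± 2.84 CPM (SD, n = 3 each). Ap1s3, a subunit of a clathrin adaptor, and the small GTPase gene Rab39 were also close to water at 1 h. They changed by 1.55 (SE 0.14) and 1.54 (SE 0.11). For all named rises, lack of overlap between the libraries of the times was a condition of naming.

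In the second shape the gene was already above water at 1 h and rose further. Inhba, the activin beta A subunit and a known target of neuronal activity (chr13:16011850-16031609, plus strand), had 43.2, 57.9 and 65.5 CPM at 1 h and 245, 241 and 265 CPM at 4 h. Water held 26.1 ± 8.31 CPM (SD, n = 3) at 1 h and 18.5 and 32.4 CPM at 4 h, so the excess over water at 4 h was 765% of that at 1 h. The change from 1 h to 4 h was 2.17 (SE 0.25, edgeR adjusted p = 1.07e-05), and a gene on the opposite strand, B230303A05Rik, overlaps Inhba, so that reads of the pair cannot be separated if strand was not used in counting. Pim1, a serine/threonine kinase induced by growth factors and cytokines, had 3.84, 3.52 and 3.62 CPM at 1 h and 13.2, 13.8 and 13.5 CPM at 4 h. Every 1 h library was above water, which held 2.44 ± 0.240 CPM (SD, n = 3) at 1 h and 1.96 and 2.10 CPM at 4 h, and the difference at 1 h was 0.58 on the log2 scale (edgeR adjusted p = 0.000541). Its change from 1 h to 4 h was 1.89 (SE 0.11, edgeR adjusted p = 9.5e-11). Serpinb2, a protease inhibitor of the plasminogen system, had 2.36, 3.40 and 2.51 CPM at 1 h and 8.84, 8.21 and 6.68 CPM at 4 h, against 0.361 to 0.485 CPM in water at 4 h. Its change was 1.51 (SE 0.22, edgeR adjusted p = 2.13e-05). Bdnf, the neurotrophin that strengthens active synapses, also belonged here, with 1026, 1116 and 892 CPM at 1 h and 1332, 1420.0 and 1393 CPM at 4 h, a smaller change of 0.45 (SE 0.10, edgeR adjusted p = 0.00116).

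In the third shape the gene was below water at 1 h and came back. Emx1, a homeobox factor of cortical excitatory neurons, stood at 6.07 ± 0.410 CPM (SD, n = 3) in water at 1 h. With bicuculline it had 1.64, 1.33 and 1.68 CPM at 1 h and 4.39, 4.51 and 4.54 CPM at 4 h, a log2 fold change of 1.53 (SE 0.12, edgeR adjusted p = 5.54e-09). Its 4 h libraries were still under both water libraries of 4 h, at 5.77 and 4.87 CPM. Ovol2, a zinc finger repressor, fell from 6.33 ± 0.613 CPM (SD, n = 3) in water to 2.58, 2.57 and 2.24 CPM at 1 h of bicuculline and stood at 7.37, 6.60 and 8.77 CPM at 4 h. Adgra2, an adhesion receptor of the Wnt pathway, and Medag, known from fat cell differentiation, were below water at 1 h by 0.69 and 1.01 on the log2 scale and above it at 4 h by 1.04 and 1.15.

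Of the 14 named rises 3 were of genes for linker histones, Hist1h1c, Hist1h1e and Hist1h1d, and other histone genes were not counted. Hist1h1c had 3.01, 3.80 and 4.07 CPM at 1 h and 13.3, 13.2 and 11.2 CPM at 4 h, and its change was 1.78 (SE 0.19, edgeR adjusted p = 4.73e-07). Hist1h1e and Hist1h1d changed by 1.74 (SE 0.19) and 1.55 (SE 0.22). In water under MM401 the same 3 genes moved by 1.10, 0.94 and 1.23 between 1 h and 4 h, with edgeR adjusted p of 0.0179, 0.0522 and 0.0291. For none of the 3 was the bicuculline change called different from the change in water (edgeR adjusted p = 0.147, 0.0835 and 0.618).

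**Figure D2:**
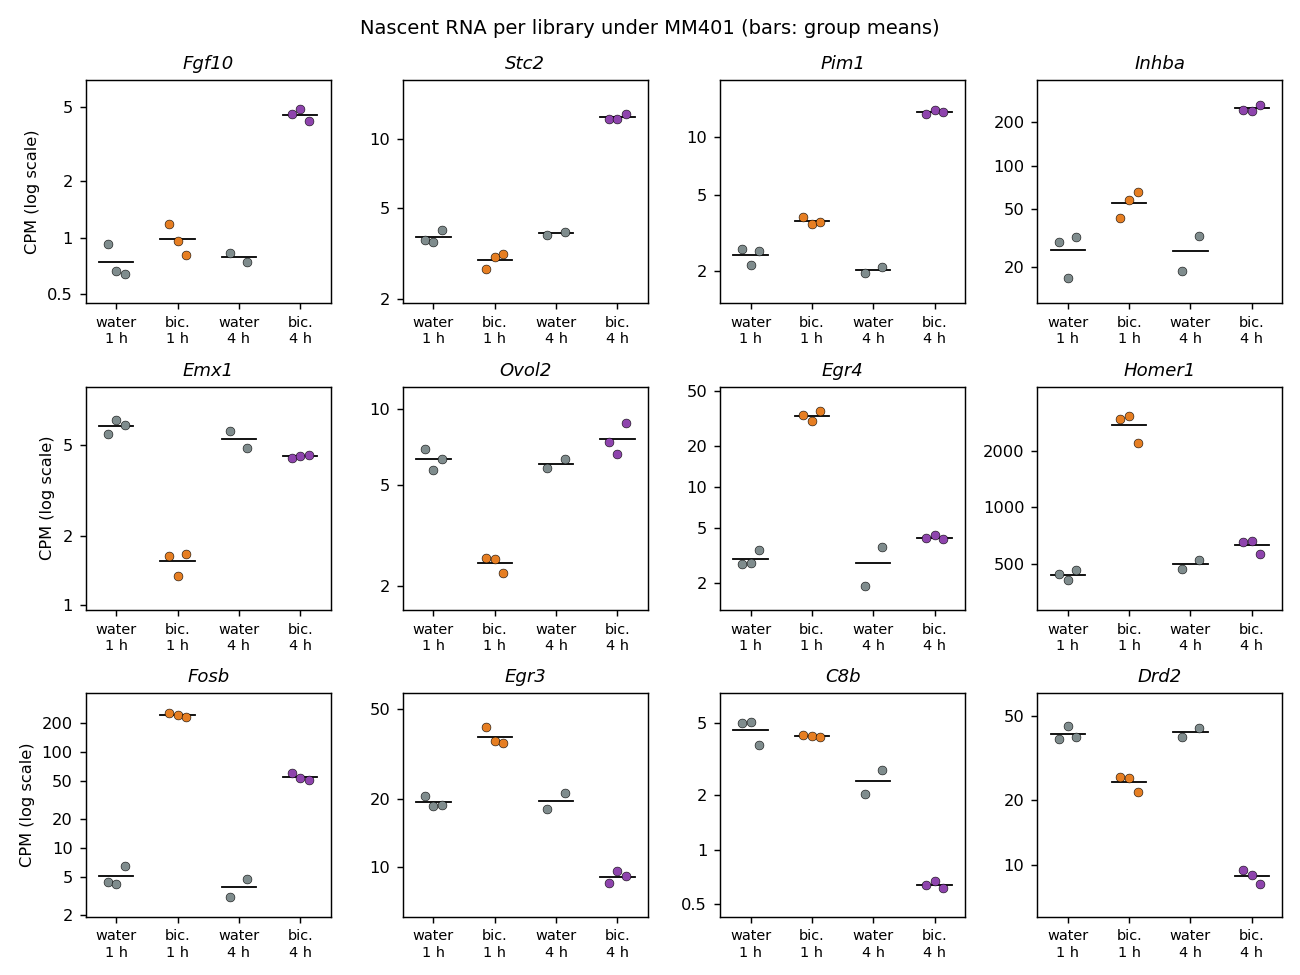
Each panel is 1 gene, with CPM on a log y axis and the MM401 groups in water and bicuculline (bic.) at 1 h and 4 h on the x axis. Points are libraries and bars are group means. Fgf10 and Stc2 are high at 4 h of bicuculline only, Emx1 and Ovol2 are low at 1 h of bicuculline, Egr4 and Homer1 peak at 1 h, and C8b and Drd2 are lowest at 4 h.

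The named genes that fell were of 2 kinds, again described after their values were seen, those induced by 1 h that returned towards water, and those near or below the water level at 1 h that ended far below it. Egr4, a zinc finger transcription factor of the first wave (chr6:85511120-85513589, minus strand), is the clearest of the first kind and had the largest named fall. Its nascent RNA stood at 33.1, 30.0 and 35.8 CPM at 1 h and at 4.23, 4.51 and 4.16 CPM at 4 h, against 3.02 ± 0.408 CPM (SD, n = 3) in water at 1 h. Of its excess over water at 1 h, 5.03% was left at 4 h (2.13% without the first water library of 4 h, 7.93% without the second), and the log2 fold change was -2.94 (SE 0.17, edgeR adjusted p = 7.1e-10). Homer1, a postsynaptic scaffold whose short activity-induced form loosens glutamate receptor complexes (chr13:93303756-93405129, plus strand), had 2967, 3060.0 and 2202 CPM at 1 h and 654, 659.9 and 562 CPM at 4 h. Of its excess 5.61% was left, with a change of -2.13 (SE 0.13, edgeR adjusted p = 2.31e-10). Because counts span the whole gene, the short and long forms of Homer1 are not separated.

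Fosb, a partner of Jun proteins in the AP-1 complex, fell from 252, 242 and 231 CPM to 60.0, 53.7 and 51.7 CPM, but its 4 h libraries were all still well above water, which held 3.14 and 4.81 CPM. Its change was -2.13 (SE 0.13, edgeR adjusted p = 2.93e-09), and 21.6% of the excess was left. Tnmd, a membrane protein known from tendon, had 9.56, 9.91 and 9.13 CPM at 1 h and 2.00, 2.77 and 2.80 CPM at 4 h, with 12.8% of its excess left. Egr3, another zinc finger factor of the Egr family, passed below water. It stood at 41.6, 35.8 and 35.2 CPM at 1 h and at 8.44, 9.54 and 9.06 CPM at 4 h, while water held 17.97 and 21.2 CPM at 4 h. The 4 h bicuculline level of Egr3 was 1.12 lower than 4 h water on the log2 scale (edgeR adjusted p = 5.73e-08), and its change from 1 h to 4 h was -2.06 (SE 0.10). Ptprb, a receptor tyrosine phosphatase, went the same way, from 4.54 ± 0.817 to 1.18 ± 0.0627 CPM (SD, n = 3 each) with 2.58 and 2.68 CPM in water at 4 h. Bdkrb2, the bradykinin B2 receptor, was less clearly of this kind. It fell from 2.49, 3.57 and 3.90 CPM to 0.673, 0.973 and 0.934 CPM and ended within its water range. Water at 1 h held 1.65, 2.52 and 1.18 CPM, which overlaps the 1 h bicuculline libraries. In water Bdkrb2 also fell, to 0.659 and 1.15 CPM at 4 h.

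C8b, which encodes a chain of complement component 8, leads the second kind. It had 4.30, 4.27 and 4.22 CPM at 1 h and 0.641, 0.673 and 0.618 CPM at 4 h, a change of -2.73 (SE 0.18, edgeR adjusted p = 4.26e-10), although at 1 h it was within the spread of water (4.61 ± 0.720 CPM, SD, n = 3). In water C8b also fell, to 2.03 and 2.77 CPM at 4 h, and the fall with bicuculline was larger than the fall in water by 1.78 on the log2 scale (edgeR adjusted p = 6.47e-05). Rec114, Vmn2r56, Mannr, Accsl, Spag6 and Oacyl followed the same course, and of these Vmn2r56 and Oacyl were called lower than water already at 1 h. They are known from meiosis (Rec114), the vomeronasal organ (Vmn2r56) and the sperm tail (Spag6) or are little studied, and their means at 1 h were 2.40 to 7.04 CPM and at 4 h 0.549 to 1.91 CPM. Their changes ran from -2.20 to -1.88, and in each the 4 h level was under 4 h water by 1.79 to 2.18 on the log2 scale. Rec114 is overlapped by Nptn and Spag6 by Gm3363, each on the opposite strand, so reads of those pairs may be mixed.

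Drd2 and Adora2a, receptors for dopamine and adenosine listed here as markers of striatal neurons, belonged to the second kind but were already lower at 1 h. Drd2 stood at 41.1 ± 3.27 CPM (SD, n = 3) in water at 1 h, at 25.7, 25.4 and 21.9 CPM at 1 h of bicuculline and at 9.44, 8.996 and 8.08 CPM at 4 h. The change from 1 h to 4 h was -1.46 (SE 0.08, edgeR adjusted p = 4.34e-11). Adora2a changed by -1.49 (SE 0.17, edgeR adjusted p = 6.77e-07). The other 2 markers of that list did not follow, since Drd1 changed by 0.09 (not called) and Ppp1r1b rose by 0.55 (SE 0.11). The summed level of all 4 markers of the list was 39.8 to 42.8 CPM at 1 h and 26.3 to 26.8 CPM at 4 h.

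How these shapes are spread over all late-rising and shut-off genes was read from genes chosen in other libraries, those called and changed at least 2-fold between 1 h and 4 h of bicuculline with DMSO. In that comparison 5805 genes were called (34.2%), 3233 higher (19.1%) and 2572 lower (15.2%). Of 204 genes that rose at least 2-fold with DMSO, 153 (75%) were called higher under MM401, beside 17.5% of all genes, with a median change of 1.10. Under MM401 their median difference from water was 0.29 at 1 h and 1.24 at 4 h, and 132 of the 204 were at least 2-fold above water at 4 h against 34 at 1 h. Most genes of the rising set were thus not 2-fold above water at 1 h. Over all 16959 genes, 463 were at least 2-fold above water at 1 h and 790 at 4 h, and 198 and 476 at least 2-fold below it.

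Of 399 genes that fell at least 2-fold with DMSO, 286 (71.7%) were called lower under MM401, beside 16.0% of all genes, with a median change of -1.13. At 1 h under MM401, 51 of the 399 were at least 2-fold above water, beside 463 of 16959 over all genes, and 335 were within 2-fold of it. At 4 h 150 were at least 2-fold below water, beside 476 of 16959 over all genes, 224 within 2-fold and 25 at least 2-fold above it. The median difference from water of these falling genes was 0.05 at 1 h and -0.66 at 4 h, and in water alone their median change was -0.31. The comparisons with water at 1 h and 4 h share the bicuculline libraries with the change over time, so their values are given side by side.

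The windows just upstream of some of these genes are shown because the first-wave genes moved together and are textbook targets of factors that act at the promoter. Sequences are the 250 bases before the RefSeq start of each gene (build GRCm38.p6, the series' mm10), on the gene's own strand. The motifs searched on both strands were the cAMP response element TGACGTCA (bound by CREB), its core TGACG (which every full element contains), the AP-1 site TGANTCA and the Egr site GCGNGGGCG, and the CArG box of SRF by name. Matches are in capitals, and where matches touch or overlap they form 1 run of capitals. The first 4 windows belong to genes that fell from a peak at 1 h.
Homer1 (chr13:93303507-93303756, plus strand): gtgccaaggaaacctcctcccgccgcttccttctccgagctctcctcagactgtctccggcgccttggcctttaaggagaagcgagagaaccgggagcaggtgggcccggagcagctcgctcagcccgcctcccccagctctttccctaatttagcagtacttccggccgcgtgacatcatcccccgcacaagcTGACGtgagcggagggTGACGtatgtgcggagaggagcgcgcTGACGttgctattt
Egr4 (chr6:85513590-85513839, minus strand): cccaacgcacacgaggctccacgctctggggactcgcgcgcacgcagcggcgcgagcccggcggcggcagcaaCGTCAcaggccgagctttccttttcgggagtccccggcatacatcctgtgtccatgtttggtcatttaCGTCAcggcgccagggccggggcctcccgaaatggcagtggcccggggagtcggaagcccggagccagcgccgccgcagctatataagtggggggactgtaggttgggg
Nr4a1 (chr15:101266596-101266845, plus strand): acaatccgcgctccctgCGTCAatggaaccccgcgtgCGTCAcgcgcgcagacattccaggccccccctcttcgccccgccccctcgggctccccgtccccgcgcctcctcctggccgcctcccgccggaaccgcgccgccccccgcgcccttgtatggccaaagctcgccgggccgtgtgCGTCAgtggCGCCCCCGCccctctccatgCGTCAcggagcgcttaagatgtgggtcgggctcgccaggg
Btg2 (chr1:134079156-134079405, minus strand): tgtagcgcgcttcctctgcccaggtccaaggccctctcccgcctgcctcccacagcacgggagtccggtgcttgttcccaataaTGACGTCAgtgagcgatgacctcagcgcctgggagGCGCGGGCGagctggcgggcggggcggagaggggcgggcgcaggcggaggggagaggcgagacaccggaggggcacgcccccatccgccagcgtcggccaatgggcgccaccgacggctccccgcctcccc
The other 4 belong to genes that rose late (Inhba, Stc2, Serpinb2) or sank below water (C8b).
Inhba (chr13:16011601-16011850, plus strand): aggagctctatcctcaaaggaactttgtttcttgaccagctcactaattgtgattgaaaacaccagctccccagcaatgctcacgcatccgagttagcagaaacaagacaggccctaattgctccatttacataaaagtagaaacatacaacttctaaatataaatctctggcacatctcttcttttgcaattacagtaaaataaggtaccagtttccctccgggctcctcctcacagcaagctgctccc
Stc2 (chr11:31370062-31370311, minus strand): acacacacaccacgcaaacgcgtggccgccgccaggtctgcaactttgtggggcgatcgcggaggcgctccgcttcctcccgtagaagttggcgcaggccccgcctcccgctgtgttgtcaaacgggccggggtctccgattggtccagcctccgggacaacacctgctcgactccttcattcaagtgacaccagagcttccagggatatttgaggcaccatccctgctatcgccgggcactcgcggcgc
Serpinb2 (chr1:107511173-107511422, plus strand): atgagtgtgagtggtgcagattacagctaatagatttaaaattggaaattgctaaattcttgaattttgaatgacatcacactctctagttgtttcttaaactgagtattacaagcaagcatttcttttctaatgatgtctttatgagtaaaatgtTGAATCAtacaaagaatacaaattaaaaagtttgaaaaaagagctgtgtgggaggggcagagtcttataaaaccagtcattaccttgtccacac
C8b (chr4:104766067-104766316, plus strand): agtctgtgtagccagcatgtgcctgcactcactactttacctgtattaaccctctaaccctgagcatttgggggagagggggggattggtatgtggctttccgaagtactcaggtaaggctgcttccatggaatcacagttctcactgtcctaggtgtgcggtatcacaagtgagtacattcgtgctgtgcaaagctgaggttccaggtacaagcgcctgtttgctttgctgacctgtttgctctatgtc
The Homer1 window holds 3 cores, that of Egr4 2, that of Nr4a1 4 and an Egr site, and that of Btg2 a full cAMP response element and an Egr site. No match is in the windows of Inhba, Stc2 and C8b, and Serpinb2 has 1 AP-1 site. The 8 windows are examples and not a division of the named genes by motif. The core is also in the windows of the late risers Mctp2 and Rab39 and of Rec114, which sank below water. No match is in that of Tnmd, which fell from a peak at 1 h, or of Bdkrb2, whose 1 h libraries overlapped water.

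Counted over all genes with a matched window (12525 of 16959 tested, start within 100 bases of the deposited one), 25.0% hold the core TGACG. Of the activity-induced transcription factors 16 of 22 (72.7%) hold it, of the activity-induced effectors 8 of 17 (47.1%), of genes that rose at least 2-fold 28 of 133 (21.1%), and of genes that fell at least 2-fold 48 of 274 (17.5%). The Egr site is in 8.19% of all windows and in 9 of 22 (40.9%) of the transcription factors. The full cAMP response element is in 2.59% of all windows, 1 of 22 transcription factors and 3 of 17 effectors, and the CArG box in 1.11% of all and 2 of 22 transcription factors. The AP-1 site is in 4.76% of all windows, 11.3% of those that rose at least 2-fold and 7.66% of those that fell. The sets differ in base composition, with a median GC content of 58.8% over all windows, 65.0% for the transcription factors and 51.6% for the falling genes, and its part in these shares was not tested.

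Transcription factors of the first wave fell as a group. Of 28 tested, 22 were called lower at 4 h, 3 higher and 3 neither, beside 16.0% lower and 17.5% higher over all genes, and their median change was -1.05 against 0.02 over all genes. Fos, a subunit of AP-1, went from 232, 246 and 300.3 CPM to 111, 109.7 and 106 CPM, a change of -1.25 (SE 0.16, edgeR adjusted p = 2.49e-05) that left 32.8% of its excess over water. Egr1, an early zinc finger factor, went from 200.2, 193 and 215 CPM to 63.4, 64.1 and 65.7 CPM, below both water libraries of 4 h (70.3 and 87.8 CPM). Btg2, an antiproliferative cofactor, changed by -1.76 (SE 0.14) and kept 21.6% of its excess. None of the 28 was called in water between 1 h and 4 h, where over all genes 147 (0.867%) were called.

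The first-wave factors did not all switch off to the same extent. Npas4, an activity-induced factor that promotes inhibitory synapses, kept 50.03% of its excess, with 674, 511 and 518 CPM at 1 h and 335, 295 and 256 CPM at 4 h (log2 fold change -0.94, SE 0.16, edgeR adjusted p = 0.000268). Nr4a1, an orphan nuclear receptor, kept 38.2% of its excess and went from 271, 242 and 241 to 124, 108 and 107 CPM. The 3 members called higher were Csrnp1 (0.73), Klf2 (1.36, at 0.275 CPM at 1 h and 0.718 CPM at 4 h) and Ier5 (0.48). The 3 not called were Klf6 (-0.12), Myc (-0.12) and Nfil3 (0.10).

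Synaptic and signalling effectors of activity also fell more often than they rose, 15 of 20 lower and 2 higher with a median change of -0.54, beside 16.0% lower and 17.5% higher over all genes. Arc, which drives removal of AMPA receptors from synapses, went from 81.3, 72.8 and 73.7 CPM to 26.0, 20.9 and 22.4 CPM, a change of -1.72 (SE 0.15, edgeR adjusted p = 2.72e-07), and 19.9% of its excess was left. Ccn1, a matricellular protein also called Cyr61, changed by -1.81 (SE 0.13) and kept 21.2% of its excess. Pim1 (1.89) and Sgk1 (0.54), both kinases, were the members called higher. Plk2, a kinase of homeostatic synapse weakening, stayed near its 1 h level, with 270.3, 289.7 and 283 CPM at 1 h and 245, 258 and 256 CPM at 4 h. Its change of -0.15 (SE 0.08) was not called (edgeR adjusted p = 0.142), and 86.2% of its excess was left.

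Secreted factors and neuropeptides were divided, with 13 of 33 called higher, 9 lower and 11 neither, beside 17.5% higher and 16.0% lower over all genes. Rises were led by Fgf10, Inhba, Stc2 and Serpinb2, described above. Nptx2, a secreted organiser of AMPA receptors, had 53.8, 51.3 and 43.1 CPM at 1 h and 48.6, 57.1 and 60.6 CPM at 4 h. Those groups overlap, and its change of 0.17 (SE 0.09) was not called (edgeR adjusted p = 0.182). Vip, a peptide of a class of GABAergic neurons, fell by 0.86 on the log2 scale, from 21.4 to 11.8 CPM on average.

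**Figure D3:**
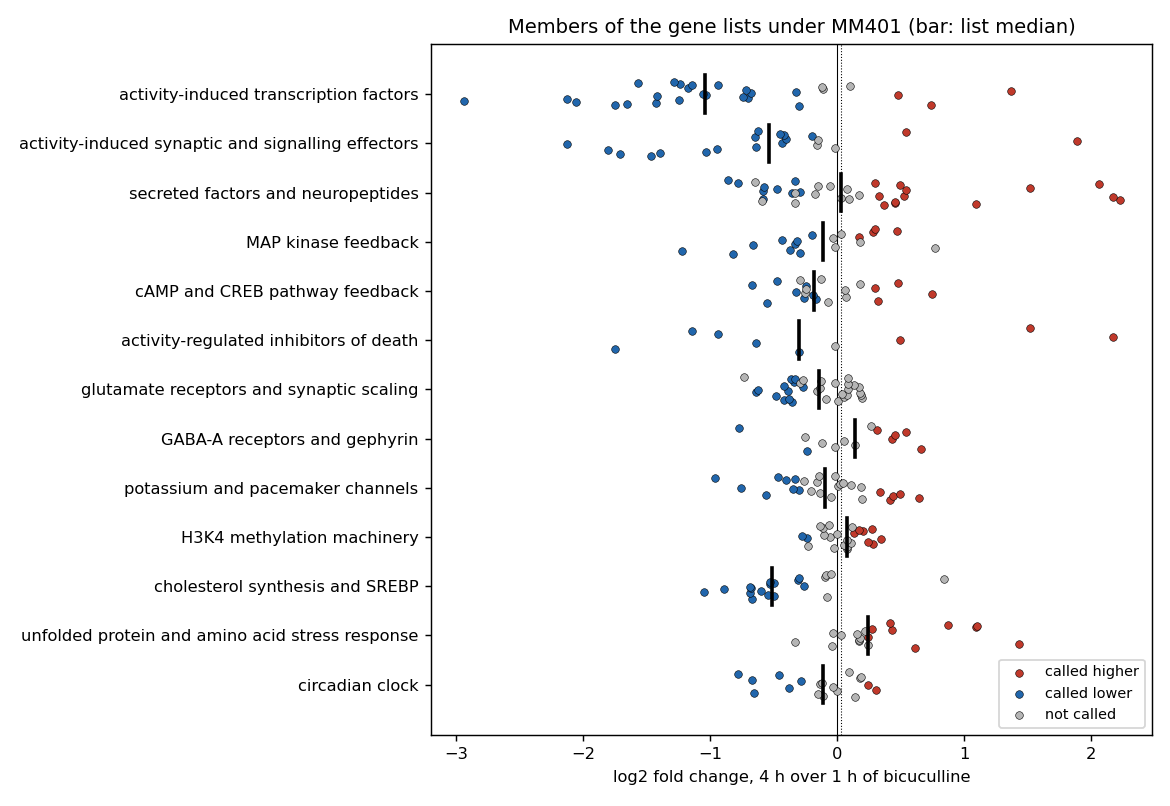
Each row is a gene list and each point a member, with its log2 fold change of 4 h over 1 h of bicuculline under MM401 on the x axis. Red members are called higher, blue lower and grey neither, the bar is the list's median and the dotted line the median of all genes (0.02). Transcription factors lie mostly left of 0 (median -1.05), cholesterol genes too (-0.51), and the stress list right of it (0.24).

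Genes that feed back on the MAP kinase and cAMP pathways moved in both directions. Of 18 MAP kinase feedback genes 9 were called lower and 4 higher, beside 16.0% lower and 17.5% higher over all genes, so the count of rises is near that background. The list was led downward by the phosphatases Dusp14 (-1.22, SE 0.07), Dusp1 (-0.82, SE 0.11) and Dusp5 (-0.66, SE 0.12). Dusp1 kept 51.3% of its excess over water. The 4 called higher were not stable, since leaving out any 1 of the 6 libraries, or adding the shallow one, left 1 or 2. With plain library sizes 5 of the list were called lower. Of 20 genes of the cAMP and CREB pathway 8 were called lower (5 with the shallow library) and 4 higher. The rises are again near the 17.5% over all genes. Per1, a clock gene induced through the cAMP pathway, changed by -0.67 (SE 0.09), and Gpr3, a receptor that raises cAMP without ligand, by 0.74 (SE 0.12).

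Cholesterol synthesis genes were lower at 4 h, 15 of 20 called and none higher, with a median of -0.51, beside 16.0% lower and 17.5% higher over all genes. Idi1, an isomerase that makes the building blocks of the pathway, had 27.1, 26.5 and 23.6 CPM at 1 h and 14.1, 13.7 and 13.7 CPM at 4 h, a change of -0.89 (SE 0.08, edgeR adjusted p = 3.62e-08). It had been above water at 1 h (10.4 ± 0.429 CPM, SD, n = 3), the ranges of the times did not overlap, and 33.1% of the excess was left. Fdps, which joins those building blocks, had 5.98, 6.43 and 5.69 CPM at 1 h and 3.49, 3.67 and 4.04 CPM at 4 h, a change of -0.69 (SE 0.11, edgeR adjusted p = 3.89e-05). In water 2 of the 20 were called lower, where 0.867% of all genes were called in either direction, and the median there was -0.25. The fall in bicuculline was called larger than that in water for 3 of the 20, where 6.78% of all genes were called downward.

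Genes of the unfolded protein and amino acid stress response moved the other way, with 9 of 19 called higher and none lower (median 0.24), beside 17.5% higher and 16.0% lower over all genes. In water 14 of the 19 changes were positive with a median of 0.12 and 1 was called higher, where 0.867% of all genes were called in either direction. For 2 of the 19 the rise in bicuculline was called larger than that in water, near the 6.12% of all genes called upward. Chac1, which degrades glutathione, had 3.21, 3.15 and 3.17 CPM at 1 h and 8.62, 8.47 and 8.53 CPM at 4 h, against 4.402 and 5.45 CPM in water at 4 h. Its change was 1.43 (SE 0.10, edgeR adjusted p = 1.03e-09). Sesn2, a stress-induced inhibitor of mTORC1, went from 15.2 ± 0.915 to 32.5 ± 1.13 CPM (SD, n = 3 each). Sdf2l1 and Trib3 changed by 1.09 (SE 0.28) and 0.87 (SE 0.16).

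Channels and receptors set synaptic strength and excitability. Of 32 genes of glutamate receptors and synaptic scaling, 12 were called lower and none higher (median -0.15), beside 16.0% lower and 17.5% higher over all genes. With plain library sizes 3 were called higher, and with the shallow library in the fit 7 were called lower. Grin2a, the NMDA receptor subunit of mature synapses, had 1093, 1044 and 792 CPM at 1 h and 646, 678 and 557 CPM at 4 h, a change of -0.64 (SE 0.14, edgeR adjusted p = 0.00103). Gria1, an AMPA receptor subunit, changed by -0.48 (SE 0.10) and was not called with the shallow library in the fit (edgeR adjusted p = 0.0634). Of 13 GABA-A receptor genes and gephyrin 5 were called higher and 2 lower, or 2 and 1 with the shallow library, and 1 was lower without 1 h replicate 2, 4 h replicate 1 or 4 h replicate 3. Over all genes 17.5% were called higher and 16.0% lower, so the count of falls is near the background. Gabra2 changed by 0.66 (SE 0.12), and Gabrg3 by -0.78 (SE 0.14). In water 12 of the 13 changes were positive (median 0.20, against 0.14 in bicuculline) and 1 was called higher, beside 0.867% of all genes called. In the difference from the change in water, 0 of the 13 were called upward and 2 downward, beside 6.12% and 6.78% over all genes.

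Of 26 potassium and pacemaker channel genes 5 were called higher (3 without 1 h replicate 3 or 4 h replicate 2, 2 with the shallow library) and 8 lower. Over all genes 17.5% were called higher and 16.0% lower, so the count of rises is near the background. Kcnq3, a subunit of the M current that damps firing, had 850.0, 824 and 682 CPM at 1 h and 406, 455 and 349 CPM at 4 h, a change of -0.96 (SE 0.14, edgeR adjusted p = 1.63e-05). Kcna1, a channel of the axon, changed by 0.64 (SE 0.08). Among 18 clock genes 2 were called higher (1 without 1 h replicate 3 or 4 h replicate 1 or with the shallow library, 5 with plain library sizes) and 6 lower, beside 17.5% and 16.0% over all genes. The largest change was that of the nuclear receptor Rorb (-0.78, SE 0.07), which fell as much in water (-0.70). Of 9 activity-regulated inhibitors of neuronal death, a list that repeats genes of the others, 3 were called higher (Inhba, Serpinb2 and Ifi202b) and 5 lower. Over all genes 17.5% were called higher and 16.0% lower. Without 1 h replicate 1 the list had 2 called higher, and with plain library sizes 4 called lower.

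The target of MM401 was itself measured. Kmt2a had 239, 229 and 208 CPM at 1 h and 193, 201 and 179 CPM at 4 h, a change of -0.24 (SE 0.07, edgeR adjusted p = 0.00999). That call was lost with the shallow library in the fit (adjusted p = 0.281), without 1 h replicate 1 (0.0632) and without 4 h replicate 3 (0.0649). Wdr5 changed by -0.13 (SE 0.07) and was not called (edgeR adjusted p = 0.126). Of 23 genes of the H3K4 methylation machinery 7 were called higher and 2 lower (Kmt2a and Kmt2c), beside 17.5% higher and 16.0% lower over all genes. The lower count was 4 with a filter of at least 1 CPM in 3 libraries, and 1 with the shallow library, without 1 h replicate 1 or without 4 h replicate 3. In this list no change was over 0.34 on the log2 scale in either direction. RNA of these genes says nothing of the binding that the compound blocks.

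By class of gene length, the median change, given as a description since genes are not replicates, was 0.09 in 4479 genes under 10 kb, 0.05 at 10 to 30 kb, -0.00 at 30 to 100 kb, -0.09 at 100 to 300 kb and -0.23 in 538 genes over 300 kb. Called lower were 6.39% of the shortest class and 45.7% of the longest, while 12.5% and 9.48% were called higher. With DMSO the medians of those classes lay between -0.01 and 0.04, and in water under MM401 that of the longest was 0.08. Grin2a, Gria1, Gabrg3 and Kcnq3, described above, lie in the 2 longest classes, as does Rbfox3, the gene of the neuronal marker NeuN, which changed by -0.84 (SE 0.11). The part of gene length in the falls of those genes was not tested.

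Measured per library, 63.2%, 63.5% and 60.1% of counts lay in genes 100 kb or longer at 1 h and 60.9%, 60.8% and 58.4% at 4 h. Replicate 3 was lowest at both times, and the ranges overlap. Between libraries of the same number, which the labels do not say are paired, the difference was -2.26, -2.68 and -1.65 points. The mean difference was -2.20 percentage points, with a two-sided exact permutation p of 0.3, where 3 libraries against 3 cannot give less than 0.1. It was -1.39 without 4 h replicate 3 and -1.17 for genes of 50 kb or more. With DMSO the difference was 0.74 points (exact permutation p = 0.4) and in water under MM401 1.57 points (p = 0.3, permutation test of 2 libraries against 3). Over these 3 comparisons the Benjamini-Hochberg adjusted p was 0.4 for each.

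**Figure D4:**
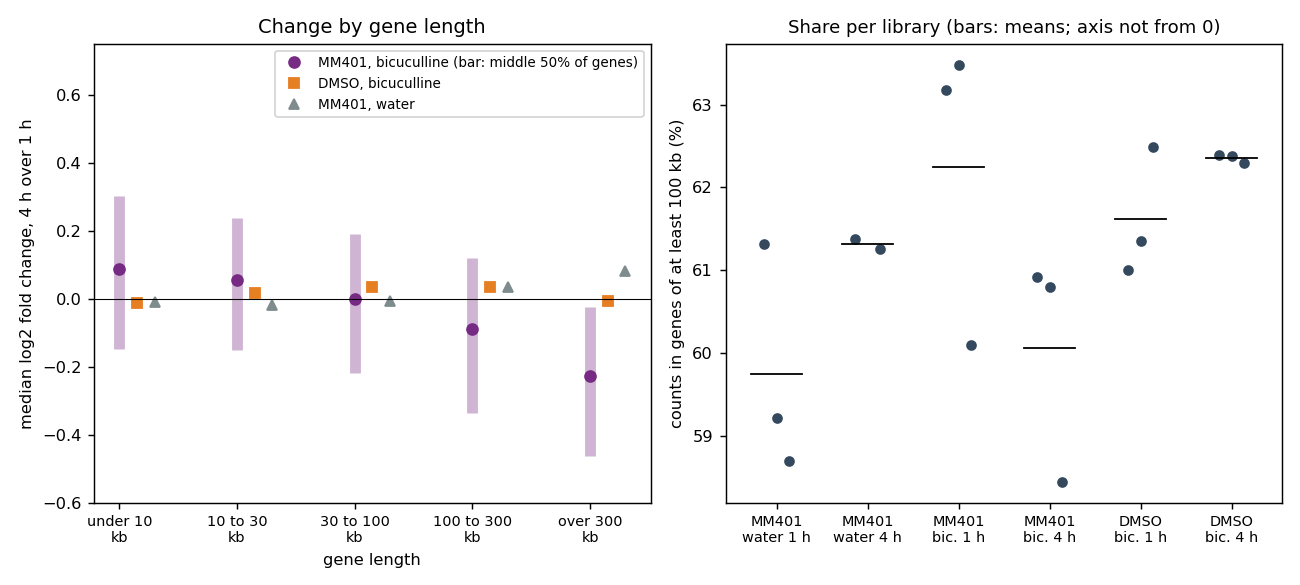
Left, the median log2 fold change of 4 h over 1 h by class of gene length on the x axis, for MM401 with bicuculline (circles, with the middle 50% of genes as bars), DMSO with bicuculline (squares) and MM401 in water (triangles). Right, the percent of each library's counts that lay in genes 100 kb or longer (points) with group means (bars), on an axis that does not start at 0. MM401 with bicuculline falls from 0.09 in the shortest class to -0.23 in the longest, and its libraries fall from a mean of 62.3% at 1 h to 60.1% at 4 h.

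The change over time was then set against that in water, to ask how much of it needs bicuculline. Between 1 h and 4 h of water 147 genes (0.867%) were called, 45 higher and 102 lower, with 2 libraries at 4 h. That count was 19 with the shallow library, and 140, 57 and 61 without replicate 1, 2 or 3 at 1 h. Leaving out a 4 h water library would leave 1 in that group, so counts without one are not given. The change with bicuculline differed from the change in water for 2187 genes (12.9%), 1038 upward (6.12%) and 1149 downward (6.78%). This count was 886 with the shallow library, and 2004, 1757 and 1555 without replicate 1, 2 or 3 of water at 1 h. Of the activity-induced transcription factors 15 of 28 were called downward and 1 upward. Mctp2 (2.26, SE 0.15) and Inhba (2.21, SE 0.37) were among the named genes with the largest upward difference, and Egr4 (-2.83, SE 0.28) and Homer1 (-2.32, SE 0.19) among those downward. Against water of the same time 6769 genes (39.9%) were called at 1 h and 7572 (44.6%) at 4 h.

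The course was much alike with DMSO in place of MM401, in libraries that the comparison above did not use. Of the 5691 genes called under MM401 4103 were also called with DMSO, which is 72.1% of the MM401 calls and 70.7% of the DMSO calls, and in none of them was the direction opposite. Of the MM401 calls 97.7% had the same sign with DMSO. Across the 16959 genes, which are not independent of each other, the log2 fold changes had a Pearson r of 0.756. Of 578 genes called and changed at least 2-fold under MM401, 427 were called with DMSO and 569 had the same sign. Their medians were 1.35 against 1.12 with DMSO for those higher and -1.32 against -1.12 for those lower, where the first values were used to choose the genes.

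**Figure D5:**
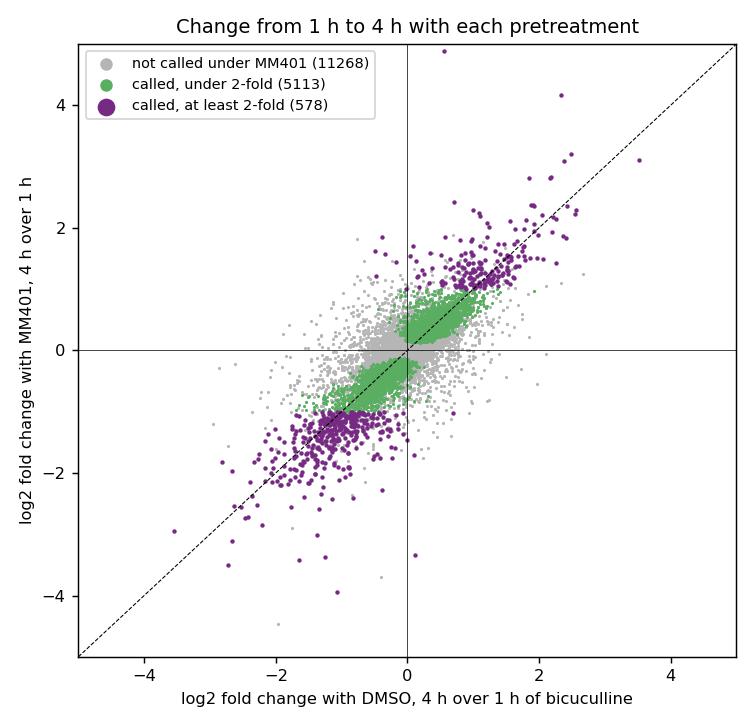
Each point is 1 of 16959 genes, with the log2 fold change of 4 h over 1 h of bicuculline with DMSO on the x axis and with MM401 on the y axis. Purple points (578) are called and at least 2-fold changed under MM401, green points are called and changed less, grey points were not called, and the dashed line marks equal change. Purple points lie along that line, and 569 of the 578 have the same sign on both axes.

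The difference itself, the change from 1 h to 4 h with MM401 minus that with DMSO, was called for no gene (0%) by edgeR, with a smallest adjusted p of 0.70. At an unadjusted p under 0.05 there were 1195 genes, and DESeq2 called 0 with 1106 unadjusted. The median SE of that difference was 0.16 on the log2 scale, against 0.11 for either change alone, so that small differences between pretreatments were not detectable with 3 libraries a group. Gene by gene, Fgf10 changed by 2.22 with MM401 and 2.55 with DMSO, a difference of -0.32 (95% interval -0.78 to 0.14). Egr4 changed by -2.94 and -3.54, and Homer1 by -2.13 and -1.64. With plain library sizes the median of all genes in this difference moved from -0.01 to 0.15, and the lists are therefore described by their counts in each pretreatment.

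The list counts with DMSO are given beside those with MM401, where over all genes 19.1% were called higher and 15.2% lower with DMSO and 17.5% and 16.0% with MM401. Of the transcription factors 23 of 28 were called lower with DMSO against 22 with MM401, of the effectors 14 against 15, and of the cholesterol genes 13 against 15. Stress genes called higher were 8 with DMSO against 9, and secreted factors 11 higher and 9 lower against 13 and 9. MAP kinase feedback genes were 2 higher and 9 lower with DMSO against 4 and 9, and cAMP and CREB genes 5 higher and 5 lower against 4 and 8. Clock genes were 4 higher and 7 lower with DMSO against 2 and 6, potassium and pacemaker channels 6 and 6 against 5 and 8, and H3K4 genes 9 and 2 against 7 and 2. Microglial and oligodendrocyte markers called higher were 1 each with DMSO against 3 each. Those marker counts with DMSO, the MAP kinase rises with DMSO and the GABA-A falls are near the shares over all genes. Glutamate receptor and scaling genes were 6 higher and 6 lower with DMSO against 0 and 12 with MM401, and GABA-A genes 8 higher and 2 lower against 5 and 2. No member of these lists was called in the difference between pretreatments, so the lists are not shown to differ. Gene length was not taken into account in these counts.

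The summed markers of several cell types differed between the times without overlap of libraries. Excitatory neuron markers summed to 836 to 1030.0 CPM at 1 h and 1008 to 1125 CPM at 4 h. Of these 8 markers 4 were called higher and 1 lower (3 and 1 with the shallow library). Over all genes 17.5% were called higher and 16.0% lower, so the lower count is near the background. GABAergic markers summed to 599 to 671 and 619.5 to 688 CPM. Of 10 tested 2 were called higher and 2 lower (1 and 1 with the shallow library), near those shares. Astrocyte markers were lower at 4 h, 1610 to 1681 against 1345 to 1424 CPM, with 2 of 8 called lower (Aldh1l1 and Slc1a3) and Aqp4 called higher, near the 16.0% and 17.5% over all genes. With the shallow library in the fit Slc1a3 and Aqp4 were not called (edgeR adjusted p = 0.102 and 0.0561). In water Aldh1l1 and Slc1a3 moved by -0.65 and -0.51. Microglial markers summed to 34.2 to 37.6 CPM at 1 h and 41.3 to 45.3 CPM at 4 h, with 3 of 6 called higher, and those of the oligodendrocyte lineage to 203 to 209 and 214 to 226 CPM, with 3 of 9 called higher (2 with the shallow library), beside 17.5% over all genes. With the shallow library in the fit 0 microglial markers were called higher by edgeR, and 1 without 1 h replicate 3 or 4 h replicate 1. The median change of the oligodendrocyte list was 0.01 in bicuculline and 0.20 in water, and that of the microglial list 0.28 and -0.04. The change in bicuculline was called different from that in water for 0 of 9 and 1 of 6, beside 12.9% of all genes. Striatal markers summed to 39.8 to 42.8 CPM at 1 h and 26.3 to 26.8 CPM at 4 h, as given above. The ranges of excitatory and GABAergic markers overlapped, and those of astrocyte, microglial, oligodendrocyte and striatal markers did not. In bulk libraries fewer cells of a type and less RNA per cell cannot be told apart, and the part of cell makeup in the changes described was not tested.

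At the edge of the call, Fabp3 (-0.40) and Tnfrsf26 (0.62) were just inside with edgeR adjusted p of 0.0499 and 0.05, and Exosc4 (0.41) and Dhdds (-0.16) just outside. Neighbouring transcription was looked at for the 28 largest named changes, since reads running on from an upstream gene on the same strand would raise or lower a gene with it. Of the 14 falls, the nearest upstream gene on the same strand was called lower in 2, higher in 3, not called in 6 and not tested in 3. Of the 14 rises it was called higher in 5, lower in 1, not called in 5 and not tested in 3. Over all genes 17.5% were called higher and 16.0% lower, so the lower neighbours of the falls are near the background. The largest of those upstream rises were those of Hist1h2ac, 60.9 kb from Hist1h1e (1.56), and of A530046M15Rik, 184 kb from Inhba (1.35). Both were at low levels, with means of 0.415 and 0.166 CPM at 1 h and 1.22 and 0.432 CPM at 4 h.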

How the data were processed

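The deposited table holds raw counts per whole gene (24984 genes, 21 libraries), per the file headers, which place the genes on mm10, and 412 genes have several positions. Bowtie2, featureCounts, UMI-tools, DESeq2 and deepTools are named, without versions, per the submitters' processing notes. How strand, reads with several matches and duplicates were treated by the authors is not given in the sources used here. Sample columns of no labelled library numbered 0.

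Counts were fitted in R 4.3.3 with edgeR 4.0.16 (robust quasi-likelihood, TMM scaling, filterByExpr at its defaults of 10 counts and 15 in total, 16959 genes tested), in 1 model of 7 groups and 20 libraries. The common biological coefficient of variation was 8.77%. limma 3.58.1 served edgeR, and DESeq2 1.42.0 was an alternative. The code was tested on simulated data. Replicates differed beyond counting noise (chi-square per degree of freedom 7.34 to 29.4). Nothing says that they came from separate animals, so p-values measure the spread between these cultures.

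The members and lists were chosen with earlier results of these data known. Named were up to 14 genes with the largest called change in each direction (at least 2 CPM at one time, no overlap of libraries, no predicted, small RNA or mitochondrial genes), up to 4 in each direction for the other comparisons, 11 set genes of activity and MM401's target, up to 4 called members of each list, and 2 genes on each side of the threshold. Where a count was 5 or fewer, members outside that rule were named after their values were seen. Coordinates are as deposited, and 68.8% of genes start 1 base before RefSeq's start. Promoter bases are RefSeq's for GRCm38.p6. Some named members of the lists are not reported here.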

Additional observations from a re-analysis of the deposited data

Results flagged for a closer look

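The change from 1 h to 4 h under MM401 differed between bicuculline and water for 2187 genes by a test of the difference itself (edgeR's quasi-likelihood interaction, adjusted p under 0.05), 1038 upward and 1149 downward. Rorb, which moved about as far in water (-0.70) as in bicuculline (-0.78), is not among them. The water arm had 2 libraries at 4 h, and the count was 886 when the shallow library was added to them.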

How the results depend on the processing

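The main count of 5691 genes stayed within 1.5 times of itself without any 1 of the 6 libraries (4624 to 5383), with other scalings (5553 with RLE, 5546 with plain library size), other filters (5423 and 5356), DESeq2 (5639) and the compared libraries alone (5352). Adding the shallow library to the fit gave 3646, and 3745 with DMSO in place of MM401. That library has few counts per gene. In water the count of 147 became 19 with the shallow library, 328 with the compared libraries alone, 275 with DESeq2 and 14 to 140 without single libraries. The difference between bicuculline and water (2187) became 886 with the shallow library and 1310 to 2495 without single libraries. The cause of these moves was not tested. The difference between pretreatments had 0 calls under every alternative run. With the replicate number as a replicate block the main count was 6129. Same-numbered libraries deviated together only weakly (r = 0.150, 0.059 and 0.064). Each 1 h library nevertheless correlated best with the 4 h library of its own number. The labels do not say whether the numbers pair the samples, and the main fit did not pair them. Of 1454 recomputed values of named genes 1385 kept their direction and their side of the threshold, 59 lost the call, 10 gained it and 0 reversed. The difference in the share of counts in long genes was -1.17 points at a limit of 50 kb, -2.44 at 200 kb, and -3.27 to -1.39 without single libraries. Between same-numbered libraries, which the labels do not say are paired, it was -2.26, -2.68 and -1.65.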
